A study of Mus musculus with 6 samples.

Results

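The L1-type and contactin adhesion genes are 10 mouse genes, taken by symbol: the L1-type genes *L1cam*, *Chl1*, *Nfasc* and *Nrcam*, and the contactin genes *Cntn1*, *Cntn2*, *Cntn3*, *Cntn4*, *Cntn5* and *Cntn6*. All 10 were found among the 43346 Ensembl genes of the tables, and all 10 passed the filter on low counts that left 15747 genes to test. RNA was sequenced from cultured mouse retinal ganglion cells (RGCs), the output neurons of the retina, purified by immunopanning for CD90.1 and kept with forskolin, BDNF and CNTF. Cells in all 3 groups received an AAV, a viral vector, 4 h after plating, and RNA was taken at 72 h. The control AAV encoded EGFP, the second encoded Sox11 with EGFP, and the third encoded Sox11 K91A with EGFP, in which the lysine that carries the SUMO modification is replaced by alanine. Each group had 2 libraries, and whether these came from separate cultures is not stated, so p-values measure the spread between libraries, which may be technical. The RNA protocol gives embryonic day 18 for the cells, the culture protocol gives postnatal day 2 and the deposited tables are titled postnatal day 0, so the age is uncertain. The study used C57BL/6 mice of both sexes, with no statement on these cultures alone, and the promoter of the vectors is not stated.

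L1-type proteins span the neuronal membrane. They bind each other and other adhesion proteins through extracellular immunoglobulin and fibronectin domains, and their cytoplasmic tails bind ankyrin, which links them to the spectrin cytoskeleton. Contactins have similar extracellular domains but no cytoplasmic tail, since a lipid anchor holds them to the membrane, and they act with partners such as L1-type proteins, contactin-associated proteins and receptor phosphatases. In RGCs, L1cam is known from the growing and bundled axons of the optic pathway.

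*Sox11* RNA was used to check the group labels. It lay at 234 and 332 CPM (counts scaled to a common library total, with TMM factors) in the control libraries, at 9178 and 14590 CPM with Sox11 AAV, and at 11970 and 7026 CPM with Sox11 K91A AAV. This separates control from both virus groups, but the Sox11 and K91A libraries overlapped, so the labels of these 2 groups were not checked by it. Library totals ranged from 27521982 to 37061718 counts. On a second principal component with 19.8% of the variance, control replicate 2 and Sox11 replicate 2 were at -51 and -50.3 and the other 4 at 20.7 to 30.4, and these 2 libraries also had the lowest *Xist* levels (95.9 and 254 CPM, against 400 to 526 CPM). All 10 RGC markers were detected in each group. Their summed level was 9940 to 10600 CPM in control, 4530 to 6950 CPM with Sox11 and 5680 to 7260 CPM with K91A. *Nefl*, a neurofilament gene, made up most of it (means of 6715, 3146 and 3712 CPM). With Sox11, *Nefl*, *Slc17a6* and *Thy1* were called lower and the other 7 RGC markers were not called, and with K91A *Slc17a6* was called lower and the other 9 were not. *Thy1* had means of 707, 153 and 233 CPM, *Slc17a6* of 600, 336 and 332 CPM and *Isl1* of 265, 275 and 281 CPM. Of the 10 RGC markers, 7 had a log2 fold change below 0 and 3 above 0 with each virus. The 7 Müller glia and astrocyte markers summed to 105 to 108, 273 to 299 and 269 to 313 CPM, with *Gfap* at 0 in all groups. *Glul*, called higher with both viruses, was nearly the whole of this sum (means of 101, 284 and 289 CPM), while *Rlbp1* (2.44, 0.438 and 0.325 CPM), *Sox9* (1.51, 0.432 and 0.163 CPM) and *Slc1a3* (0.953, 0.278 and 0.537 CPM) were not called, and the median log2 fold change of the 5 markers tested was -1.66 with Sox11. The 8 oligodendrocyte lineage markers summed to 40.3 to 52.3, 40.5 to 45 and 45.4 to 46.1 CPM, with *Olig2* at 0. *Mbp* carried that sum (means of 42.8, 30.2 and 36 CPM), *Pdgfra* and *Mog* were called higher with Sox11, and the median of the 4 tested was 1.72. The 7 amacrine cell markers summed to 99.1 to 240, 75.3 to 144 and 128 to 137 CPM, with *Prox1* called higher and *Slc6a9* lower with both viruses. *Xist* was not the only gene with uneven pairs in control and Sox11. Its replicates lay 2.06, 1.05 and 0.074 apart on the log2 scale in control, Sox11 and K91A. For *Gad1* these gaps were 3.67, 2.96 and 0.197, and for *Slc32a1* 3.57, 1.56 and 0.084. They were 0.653, 0.932 and 0.543 for *Slc6a9*, and 1.38, 0.212 and 0.69 for *Prox1*. The vascular markers summed to 4.7 to 5.58, 7.54 to 9.97 and 8.92 to 11.6 CPM. The bipolar cell, photoreceptor, microglia and cycling cell markers each summed to at most 2.83 CPM in any library. In bulk samples such as these, fewer cells of a type and less RNA per cell cannot be told apart. The part of these shifts in the results below was not tested.

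The tests called *Chl1* and *Cntn2* among the 10 genes. Their promoters are shown because both genes were called with Sox11, a transcription factor that binds DNA. Binding was not measured, and the *Cntn2* call was lost in several of the other fits given below. The sequences are those of RefSeq on GRCm38.p6, written 5′ to 3′ on the strand of the gene. They run from 250 bases before to 50 bases after the RefSeq transcription start. Both lie wholly inside the GENCODE M21 gene bounds given below, which start both genes farther upstream. Capitals mark a match to ACAAAG, or to its reverse complement CTTTGT, a core that proteins with a Sox-type domain are known to bind.
Chl1 (chr6:103510626-103510925, plus strand): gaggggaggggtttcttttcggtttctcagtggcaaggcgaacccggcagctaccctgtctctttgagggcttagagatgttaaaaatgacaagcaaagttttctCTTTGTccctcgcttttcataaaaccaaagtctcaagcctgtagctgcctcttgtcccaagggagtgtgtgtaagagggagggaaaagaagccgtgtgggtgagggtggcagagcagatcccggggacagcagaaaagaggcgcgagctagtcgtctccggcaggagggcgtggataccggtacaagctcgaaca
Cntn2 (chr1:132542891-132543190, minus strand): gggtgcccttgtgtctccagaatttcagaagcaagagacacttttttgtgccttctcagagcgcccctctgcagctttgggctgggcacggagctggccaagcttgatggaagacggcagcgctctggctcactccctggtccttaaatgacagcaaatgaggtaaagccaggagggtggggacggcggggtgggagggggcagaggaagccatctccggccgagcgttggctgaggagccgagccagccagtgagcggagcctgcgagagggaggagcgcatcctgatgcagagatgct
Both strands were searched for ACAAAG, for ACAATG and for AACAAAG, which contains ACAAAG. RefSeq gave 16 promoters for the 10 genes, out of 32851 promoters of this length. ACAAAG was present in 18.7% of all promoters and in 1 of the 16, that of *Chl1*. ACAATG was present in 12.6% of all promoters and in 1 of the 16, a second promoter of *Cntn1*. AACAAAG was present in 5.85% of all promoters and in none of the 16. A match is a description of these letters and no match says nothing about binding.

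The genes lie on 6 chromosomes, with coordinates here from GENCODE M21 on GRCm38, the build the authors aligned to (mm10). *Cntn2* (chr1:132509427-132543256) and *Nfasc* (chr1:132564690-132741797) are neighbours on the minus strand of chromosome 1, 21.4 kb apart. Of this pair, *Cntn2* was called lower with Sox11 and *Nfasc* was not called. On chromosome 6, *Cntn3* (chr6:102162655-102573101), *Chl1* (chr6:103510586-103750211), *Cntn6* (chr6:104492790-104863406) and *Cntn4* (chr6:105677660-106699310) follow each other with no protein-coding gene between them. *Chl1* alone of these 4 genes was called. *L1cam* (chrX:73853778-73896105) is on the X chromosome and overlaps *Arhgap4* and *Avpr2*, which held 924.51 and 58.74 counts over all libraries against at least 25025 counts for *L1cam* in each. *Nrcam* is on chromosome 12, *Cntn1* on chromosome 15 and *Cntn5* on chromosome 9. The use of strand in counting is not stated, so reads from overlapping genes on opposite strands may not be separable.

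Levels between genes were compared by TPM, which accounts for transcript length. *L1cam* was the most abundant of the 10 genes in each library, at 407 to 633 TPM in control, 452 to 529 TPM with Sox11 and 488 to 532 TPM with K91A. It made up between 71.1% and 79.2% of the summed TPM of the L1-type genes. *Cntn1* held between 68.7% and 77.4% of the summed TPM of the contactins. In control the order after *L1cam* was *Cntn1* (84.1 and 140 TPM), *Nfasc* (49.6 and 126 TPM) and *Nrcam* (38.2 and 60.4 TPM). The range of *Nfasc* overlapped with those of both neighbours, though this order held within each control library. *Cntn2* (22.1 and 32.5 TPM) and *Chl1* (19.2 and 20.1 TPM) came next, and did not overlap. *Cntn4* was at 4.97 and 14.4 TPM, *Cntn5* at 1.68 and 5.15 TPM, and *Cntn6* at 2.04 and 3.2 TPM, so that the range of *Cntn5* overlapped with both others. Within each control library *Cntn4* lay above *Cntn5*, while the order of *Cntn5* and *Cntn6* differed between these libraries. *Cntn3* was lowest, at 0.22 and 0.48 TPM, and rested on 18 to 34 counts per library.

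**Figure D1:**
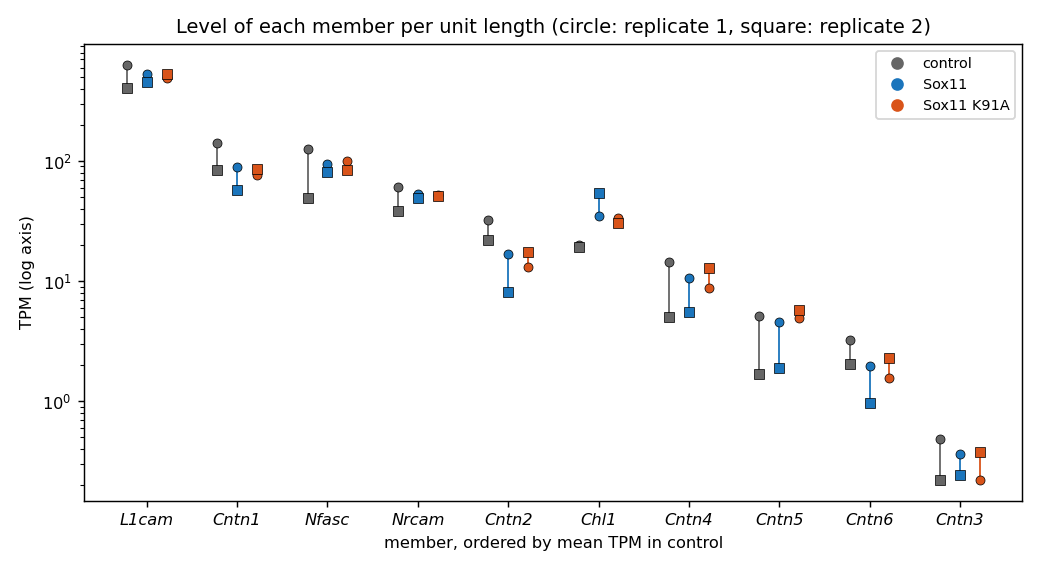
TPM (log axis) of the 10 genes, ordered by their mean in control, with a circle for replicate 1 and a square for replicate 2 of each group and a line joining the pair. The libraries of *L1cam* lie between 407 and 633 TPM and those of *Cntn3* between 0.22 and 0.48 TPM, and *Chl1* lies below *Cntn2* in control and above it with both viruses.

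Sox11 AAV was compared with control AAV to find how Sox11 changed these genes. Of the 10 genes, 2 were called (FDR under 0.05 and fold change above 1.2), *Chl1* higher and *Cntn2* lower. That is 20% of the genes, and 20.1% of all genes tested were called (9.96% higher and 10.2% lower), so the share was near the background. Of all genes 1568 were higher and 1603 lower, and on log2(TPM + 0.1) the split was 1287 to 820. The median log2 fold change was -0.05 over the 10 genes and 0.01 over all genes tested. On CPM, 4 of the 10 genes had no overlap between the groups (1 higher and 3 lower, 40%), against 61.5% of all genes tested (30.9% higher and 30.6% lower).

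*Chl1* encodes the close homolog of L1, a membrane protein that acts in axon growth and guidance. Its level was 77.2 and 80.6 CPM in control, 133 and 201 CPM with Sox11, and 129 and 119 CPM with K91A. Both control libraries lay below all 4 libraries that received a Sox11 virus, and Sox11 replicate 2 lay above the rest. *Chl1* was upregulated 2.07-fold with Sox11 (log2 fold change 1.05, SE 0.206, adjusted p = 0.0206, limma-voom). This call held in 13 of 13 other fits that kept all libraries, with adjusted p from 0.000136 to 0.0487, and in 4 of 6 fits that left out 1 library. It was lost without control replicate 2 (log2 fold change 1.08, adjusted p = 0.0532, limma-voom) and without Sox11 replicate 2 (0.76, adjusted p = 0.106, limma-voom). RSEM gave *Chl1* the same transcript length, 7751 bases, in all 6 libraries.

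*Cntn2* encodes contactin 2, also called TAG-1, an anchored protein of early growing axons that later joins contactin-associated protein 2 beside the nodes of myelinated axons. Its level was 107 and 74.9 CPM in control, 53.1 and 25.4 CPM with Sox11, and 41 and 53.5 CPM with K91A. The control libraries lay above the other 4, and Sox11 replicate 2 was lowest. *Cntn2* was downregulated 2.47-fold with Sox11 (log2 fold change -1.30, SE 0.352, adjusted p = 0.0431, limma-voom). The call held in 8 of 13 other fits with all libraries, where adjusted p ran from 0.00665 to 0.085. It was lost with edgeR, sample quality weights, a fit of the 2 groups alone and both fits on TPM. Leaving out 1 library kept it without Sox11 replicate 1 (log2 fold change -1.83, adjusted p = 0.0171, limma-voom). It was lost without control replicate 1 (-1.05, adjusted p = 0.108, limma-voom), control replicate 2 (-1.57, adjusted p = 0.0624, limma-voom), Sox11 replicate 2 (-0.75, adjusted p = 0.218, limma-voom), K91A replicate 1 (-1.30, adjusted p = 0.0564, limma-voom) or K91A replicate 2 (-1.31, adjusted p = 0.0574, limma-voom). The summed RGC markers, led by *Nefl*, were also lower in the 4 libraries with a Sox11 virus, while 7 of the 10 RGC markers were not called with Sox11, and their part in this result was not tested.

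**Figure D2:**
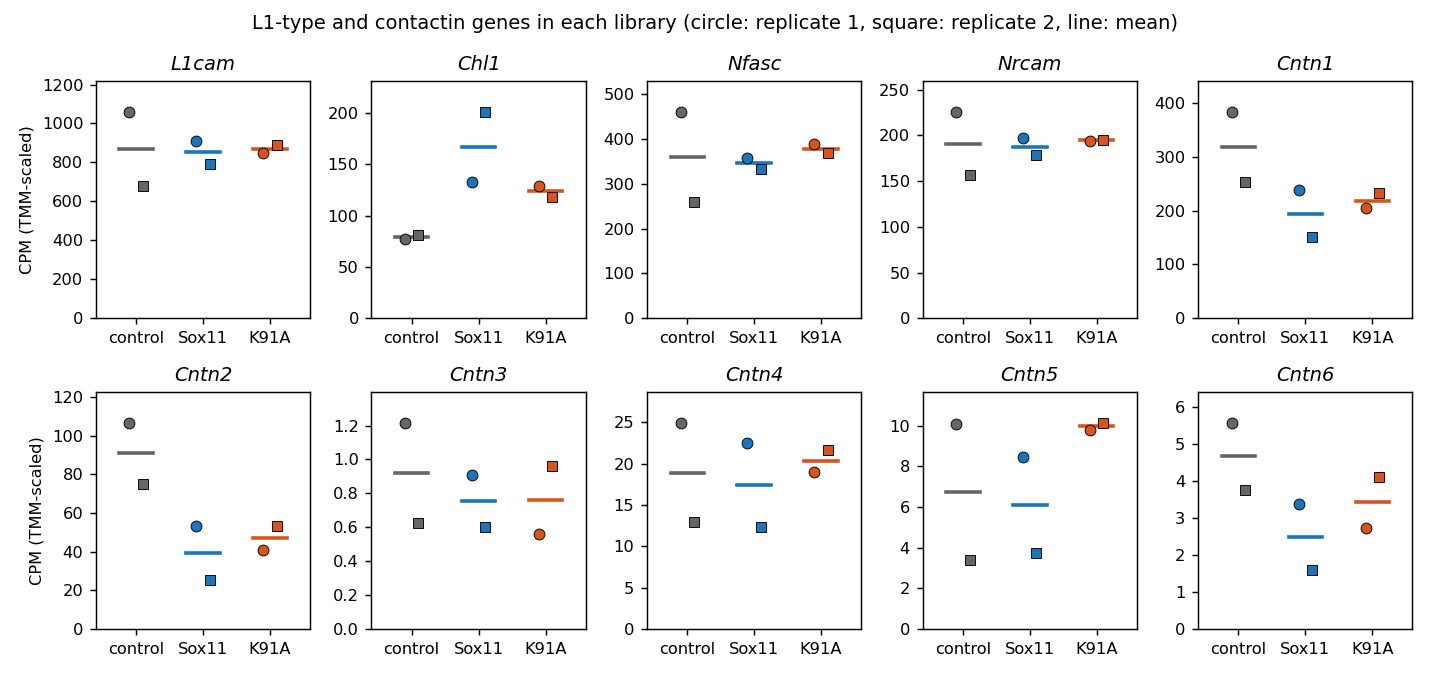
CPM of each of the 10 genes by library in the control, Sox11 and K91A groups, with circles for replicate 1, squares for replicate 2 and lines for the mean. In *Chl1* both controls lie below the other 4 libraries and in *Cntn2* both lie above them, while in *L1cam*, *Nfasc* and *Nrcam* control replicate 1 is the highest library and control replicate 2 the lowest.

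The other L1-type genes showed no difference that the test could call. *L1cam*, the founding member, was at 1059 and 679 CPM in control, 911 and 793 CPM with Sox11, and 847 and 890 CPM with K91A. The control libraries enclosed the other 4, and the log2 fold change with Sox11 was 0.001 (95% confidence interval -0.53 to 0.53). *Nfasc* encodes neurofascin, which assembles the axon initial segment and nodes. It was at 460 and 259 CPM in control, 358 and 333 CPM with Sox11, and 388 and 368 CPM with K91A. Its log2 fold change with Sox11 was -0.004 (95% confidence interval -0.62 to 0.61). *Nrcam*, an ankyrin-binding protein of the same sites, was at 226 and 157 CPM in control, 197 and 178 CPM with Sox11, and 194 and 195 CPM with K91A. Its log2 fold change with Sox11 was -0.006 (95% confidence interval -0.46 to 0.45). In all 3 genes the 2 control libraries were farther apart than any other pair. The SE with Sox11 was 0.224 for *L1cam*, 0.259 for *Nfasc* and 0.193 for *Nrcam*. These were near the 0.206 of *Chl1*, which was called, and below those of the contactins (0.274 to 0.573). What the control spread adds to these intervals was not tested. Changes of up to about the bounds given were not detectable. The signs of these small values flipped with the scaling and the unit: for *L1cam* to -0.02 with library size alone, and for *Nfasc* and *Nrcam* to 0.14 and 0.09 on log2(TPM + 1).

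Among the other contactins, *Cntn1* and *Cntn6* had no overlap between Sox11 and control, but neither was called. *Cntn1* encodes contactin 1, the partner of contactin-associated protein 1 at paranodes and a ligand of the phosphatase encoded by *Ptprz1*. It was at 384 and 254 CPM in control, 238 and 151 CPM with Sox11, and 204 and 233 CPM with K91A. Control replicate 2 and Sox11 replicate 1 lay close together. The log2 fold change with Sox11 was -0.72 (SE 0.274, adjusted p = 0.103, limma-voom), and it passed without Sox11 replicate 1 (-1.07, adjusted p = 0.0477, limma-voom) and with a block for low *Xist* counts (adjusted p = 0.013). The value was -0.39 without Sox11 replicate 2 (adjusted p = 0.482, limma-voom) and -0.42 without control replicate 1 (adjusted p = 0.297, limma-voom). *Cntn6*, also called NB-3, was at 5.58 and 3.76 CPM in control, 3.39 and 1.6 CPM with Sox11, and 2.73 and 4.12 CPM with K91A. Its log2 fold change with Sox11 was -0.98 (95% confidence interval -2.03 to 0.08, adjusted p = 0.157, limma-voom), and the K91A libraries overlapped with both other groups. Without 1 library it ran from -1.5 (without Sox11 replicate 1) to -0.40 (without Sox11 replicate 2) and was not called in any of these 6 fits.

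*Cntn3*, *Cntn4* and *Cntn5* overlapped between Sox11 and control. *Cntn4* was at 24.9 and 12.9 CPM in control, 22.5 and 12.3 CPM with Sox11, and 19 and 21.6 CPM with K91A. In both of the first groups replicate 2 was low. *Cntn5*, which marks subsets of neurons in sensory pathways, showed the same split, at 10.1 and 3.4 CPM in control, 8.48 and 3.74 CPM with Sox11, and 9.81 and 10.2 CPM with K91A. In control and Sox11 the lower library of *Cntn5* was the one that stood apart on the second component. *Cntn3* ranged from 0.559 to 1.22 CPM over all 6 libraries, and 95% confidence intervals with Sox11 ran from -1.54 to 1.16 for *Cntn3*, -0.995 to 0.82 for *Cntn4* and -1.37 to 1.35 for *Cntn5* on the log2 scale.

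Sox11 K91A AAV was compared with the same control libraries. None of the 10 genes was called with limma-voom, against 10.6% of all genes tested (5.81% higher and 4.81% lower). At an unadjusted p under 0.05 there were 2, *Chl1* and *Cntn2*, against 4817 of all 15747 genes tested. DESeq2 called 1 of the 10, against 20% of all genes, and edgeR called 0, against 9.05%. No overlap on CPM was seen for 3 of the 10 genes (1 higher and 2 lower), against 61.9% of all genes (31.2% higher and 30.7% lower). The *Chl1* value was 1.57-fold of control (log2 fold change 0.65, SE 0.205, adjusted p = 0.0853, limma-voom), and the *Cntn2* value was 1.91-fold lower (-0.94, SE 0.344, adjusted p = 0.122, limma-voom). The log2 fold change of *Cntn1* was -0.52 (SE 0.275, adjusted p = 0.251, limma-voom), and those of the other 7 genes ran from -0.43 for *Cntn6* to 0.85 for *Cntn5*. *Chl1* passed the threshold in 3 of 13 other fits with all libraries, namely DESeq2, the fit of 2 groups alone and the block for low *Xist* counts. It also passed without Sox11 replicate 1 (0.65, adjusted p = 0.0439, limma-voom) and without Sox11 replicate 2 (0.66, adjusted p = 0.0445, limma-voom). *Nfasc* passed without control replicate 1 (0.55, adjusted p = 0.0368, limma-voom), and its value was -0.28 without control replicate 2.

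**Figure D3:**
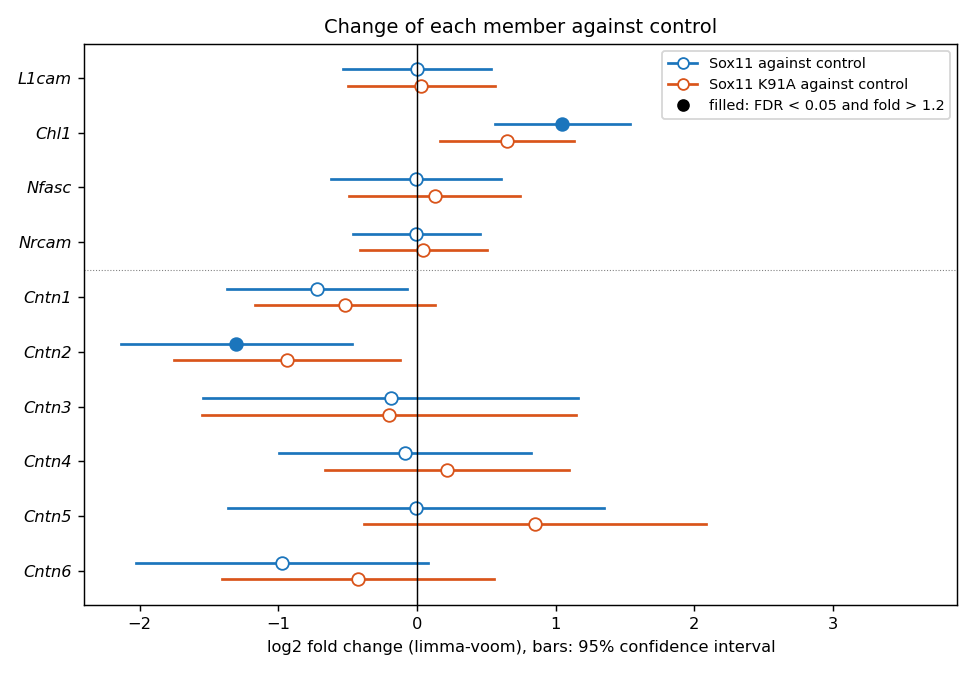
Log2 fold change of each of the 10 genes with Sox11 (blue) and K91A (orange) against the same control libraries, with bars for 95% confidence intervals and filled points for called genes. *Chl1* (1.05) and *Cntn2* (-1.30) are filled with Sox11 and no gene is filled with K91A.

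K91A was then compared with Sox11 to find whether the loss of the SUMO site changed the response. None of the 10 genes was called with limma-voom, edgeR or DESeq2, and 0 had an unadjusted p under 0.05 with limma-voom. Of all 15747 genes tested, limma-voom called 0 (0%), with 108 at an unadjusted p under 0.05, edgeR called 0 and DESeq2 called 2. *Chl1* was lower in both K91A libraries than in both Sox11 libraries, and *Nfasc* and *Cntn5* were higher, so that 3 of the 10 genes had no overlap, against 26.6% of all genes tested (13.3% higher and 13.4% lower). The difference in *Chl1* (K91A minus Sox11) was -0.40 on the log2 scale (95% confidence interval -0.89 to 0.09). That in *Cntn2* was 0.37 (95% confidence interval -0.48 to 1.21), and that in *Cntn5* was 0.86 (95% confidence interval -0.41 to 2.13). The call of *Chl1* and *Cntn2* with Sox11 and not with K91A is therefore not a shown difference between the viruses.

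When control replicate 2 and Sox11 replicate 2 were both left out, 3 of the 10 genes were called with each virus, *Chl1* higher and *Cntn2* and *Cntn1* lower, against 13.1% of all genes with Sox11 and 25.8% with K91A. Control and Sox11 are then 1 library each, so the spread comes from the K91A pair alone and both lone libraries are assumed to vary like it. The log2 fold changes were 0.79 and 0.69 for *Chl1*, -1 and -1.19 for *Cntn2*, and -0.69 and -0.81 for *Cntn1*, with Sox11 and K91A respectively. A block for low *Xist* counts marks these same 2 libraries, so it is not a separate check. It gave the same 3 genes with each virus, against 29% of all genes with Sox11 and 18.4% with K91A. These fits use the same control libraries for both viruses.

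RSEM's transcript length, an average weighted by isoform, was a further readout. It was fixed in *Chl1* and *Cntn3* and varied by a few bases in *Nrcam*, from 7551 to 7556. *Nfasc* ranged from 7419 to 9555 bases, and both extremes were control libraries. *L1cam* ranged from 3216 bases in control replicate 2 to 3760 bases in Sox11 replicate 2. In *Cntn4* the range was 3480 to 4860 bases, and both values came from replicates numbered 2, in K91A and control. Among the 10 genes, *Cntn1* was the one with lengths in both control libraries above those of all 4 others. They were 5590 and 5641 bases in control, 5487 and 5499 with Sox11, and 5466 and 5539 with K91A. The share of all genes with such a split was not computed, so the *Cntn1* lengths are a description and not a shown change of isoform.

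Likeness was measured as Pearson's r of log2 CPM over the 6 libraries, which share groups and depth, among 13377 genes, as a description. The genes most like *Chl1* were *Kpna3* (r = 0.999), *Slx4ip* (0.998) and *Arl5a* (0.998), and 659 genes had an r of at least 0.95. The genes most like *Cntn2* were *Kctd19*, *Kcna1* and *Cntnap1* (each 0.999), with 911 genes at or above 0.95. *Kcna1* encodes an axonal potassium channel subunit and *Cntnap1* the contactin-associated protein of paranodes, while *Kctd19* was low, at 0.784 to 7.26 CPM. With this many genes at or above 0.95, the ranking does not show a functional link.

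Genes that act with L1-type proteins and contactins were taken as 6 lists with 62 genes, all tested. With Sox11, 17 of them were called (7 higher and 10 lower, 27.4%), against 20.1% of all genes, and with K91A 11 were called (4 higher and 7 lower, 17.7%), against 10.6%. The number of the 62 called with Sox11 was 0 without Sox11 replicate 2 and 11 to 20 without any other library. With K91A it was 0 without control replicate 2 or K91A replicate 1, 4 without K91A replicate 2, and 12 to 16 without any other library. Of the 17 genes called with Sox11, *Cadm1*, *Dcx*, *Ezr*, *Igsf8*, *Msn* and *Ncan* kept the call in 5 of the 6 fits that left out 1 library, and the other 11 in 1 to 4. Of the 11 called with K91A, *Dcx*, *Igsf8*, *Msn* and *Ncan* kept it in 4 of 6, and the other 7 in 0 to 3.

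With Sox11 the contactin-associated list had the most called genes for its size (57.1%), while with K91A it had 14.3%, below the extracellular partners (28.6%), the adaptors (23.1%) and the other adhesion genes (20%). With Sox11, 4 of its 7 genes were called, *Cntnap2* higher and *Cntnap1*, *Cntnap3* and *Cntnap4* lower, while its median log2 fold change was 0.43, a sign opposite to that of most called genes. *Cntnap1* encodes the paranodal partner of contactin 1. It was at 287 and 143 CPM in control, 63.1 and 16.3 CPM with Sox11, and 41 and 66.9 CPM with K91A, with both controls above the other 4. Its log2 fold change was -2.70 with Sox11 (SE 0.625, adjusted p = 0.0296, limma-voom) and -1.96 with K91A (adjusted p = 0.0803, limma-voom). The call of *Cntnap1* with Sox11 held in 11 of 13 other fits with all libraries and in 4 of 6 without 1 library. It was lost without control replicate 1 (-2.21, adjusted p = 0.0701, limma-voom) and without Sox11 replicate 2 (-1.68, adjusted p = 0.134, limma-voom), where *Cntnap3* was at -1.78 in place of -2.87. *Cntnap2* encodes the partner of contactin 2. It was at 69.6 and 57.9 CPM in control, 92.1 and 105 CPM with Sox11, and 104 and 90.4 CPM with K91A, so the controls lay below the rest. Its log2 fold change was 0.63 with Sox11 (SE 0.16, adjusted p = 0.0369, limma-voom) and 0.61 with K91A (adjusted p = 0.0553, limma-voom). The RSEM length of *Cntnap2* was 3532 and 2685 bases in control and 1906 to 2137 bases in the other 4 libraries, and its TPM was 41.3 and 42.2 in control and 95.9 to 126 in the others. On log2(TPM + 0.1) the log2 fold change of *Cntnap2* was 1.39 with Sox11 and 1.35 with K91A, and it was then called with both. The *Cntn2* and *Cntnap2* values thus moved in opposite directions with Sox11, while *Cntn1* and *Cntnap1* values were both below control. The *Cntnap2* call with Sox11 held in 10 of 13 other fits with all libraries. Without 1 library, the *Cntn2* and *Cntnap2* calls each held in 1 of 6 fits, while both genes kept their sign in all 6. *Cntnap4* was the gene of this list that was called with K91A (-0.99, adjusted p = 0.0463, limma-voom).

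Of the 8 ankyrin and spectrin genes, *Ank1* was called with Sox11, lower (log2 fold change -1.30, adjusted p = 0.0371, limma-voom; -0.83 without Sox11 replicate 2), and none was called with K91A. The median of the list was 0.19 with Sox11 and 0.30 with K91A. *Ank3*, which encodes ankyrin-G of the axon initial segment, was at 758 and 423 CPM in control, 691 and 714 CPM with Sox11, and 780 and 672 CPM with K91A. The log2 fold change of *Ank3* was 0.31 with Sox11 (adjusted p = 0.439, limma-voom). That of *Sptbn4*, the spectrin of the same site, was -0.07 (adjusted p = 0.854, limma-voom).

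Of the 14 extracellular partners, 4 were called with each virus, *Ncan* and *Ptprz1* higher and *Itgb1* and *Tnc* lower. That is 28.6%, against 20.1% of all genes with Sox11 and 10.6% with K91A. *Ncan* encodes neurocan, a proteoglycan that binds L1-type proteins and contactins. It was at 264 and 183 CPM in control, 791 and 867 CPM with Sox11, and 836 and 707 CPM with K91A, so both viruses lay far above control. Its log2 fold change was 1.91 with Sox11 (SE 0.208, adjusted p = 0.011, limma-voom) and 1.81 with K91A (adjusted p = 0.0132, limma-voom). *Ptprz1*, which encodes the phosphatase that binds contactin 1, had values of 1.59 and 1.31 (adjusted p = 0.0213 and 0.0482, limma-voom). *Itgb1*, the integrin beta subunit that L1cam can bind, had values of -0.71 and -0.67 (adjusted p = 0.0271 and 0.0422, limma-voom). *Tnc*, which encodes tenascin C, had values of -1.11 and -1.23 (adjusted p = 0.0262 and 0.0305, limma-voom). *Nrp1*, the semaphorin receptor that forms a complex with L1cam, was at 141 and 170 CPM in control and 60.9 to 111 CPM in the other 4 libraries, with -0.98 for Sox11 (adjusted p = 0.0637, limma-voom) and -0.60 without Sox11 replicate 2. *Nrp1* passed without Sox11 replicate 1 (-1.36, adjusted p = 0.0359, limma-voom).

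The 5 shedding and intramembrane proteases included *Adam10*, which cleaves L1cam from the membrane. *Adam10* was called higher with Sox11 (log2 fold change 1.17, SE 0.221, adjusted p = 0.0186, limma-voom) and had a value of 0.84 with K91A (adjusted p = 0.0556, limma-voom). It was at 74.4 and 77.4 CPM in control, 137 and 214 CPM with Sox11, and 148 and 124 CPM with K91A. Both controls lay below the other 4 libraries, as for *Chl1*. The other 4 proteases were not called.

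Of the 13 cytoplasmic adaptors and kinases, *Dcx* was called higher and *Msn* and *Ezr* lower with each virus. That is 23.1%, against 20.1% of all genes with Sox11 and 10.6% with K91A. *Dcx* encodes doublecortin, a microtubule-binding protein of young neurons that also binds neurofascin. It rose by 2.33 with Sox11 and 2.04 with K91A on the log2 scale. *Msn* and *Ezr* encode moesin and ezrin, which link membrane proteins such as L1cam to actin. Their log2 fold changes were -2.10 and -2.03 with Sox11, and -2.24 and -1.79 with K91A.

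Of the 15 other adhesion genes of the immunoglobulin superfamily, 4 were called with Sox11, *Cadm1* (log2 fold change 1.13) and *Cadm4* (0.75) higher and *Alcam* (-0.86) and *Igsf8* (-2.30) lower. *Cadm1* and *Cadm4* encode adhesion proteins of synapses and of axon and glia contacts, and *Alcam* encodes a protein known from growing RGC axons. With K91A, *Cadm1* (0.95), *Alcam* (-0.89) and *Igsf8* (-1.87) were called, and *Cadm4* had a value of 0.67 (adjusted p = 0.0508, limma-voom). The shares of this list were 26.7% with Sox11 and 20% with K91A, against 20.1% and 10.6% of all genes. Of the 6 fits without 1 library, the K91A call was kept in 0 for *Alcam*, 3 for *Cadm1* and 4 for *Igsf8*. Both viruses share their control libraries, so a gene called with both is not independent evidence.

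**Figure D4:**
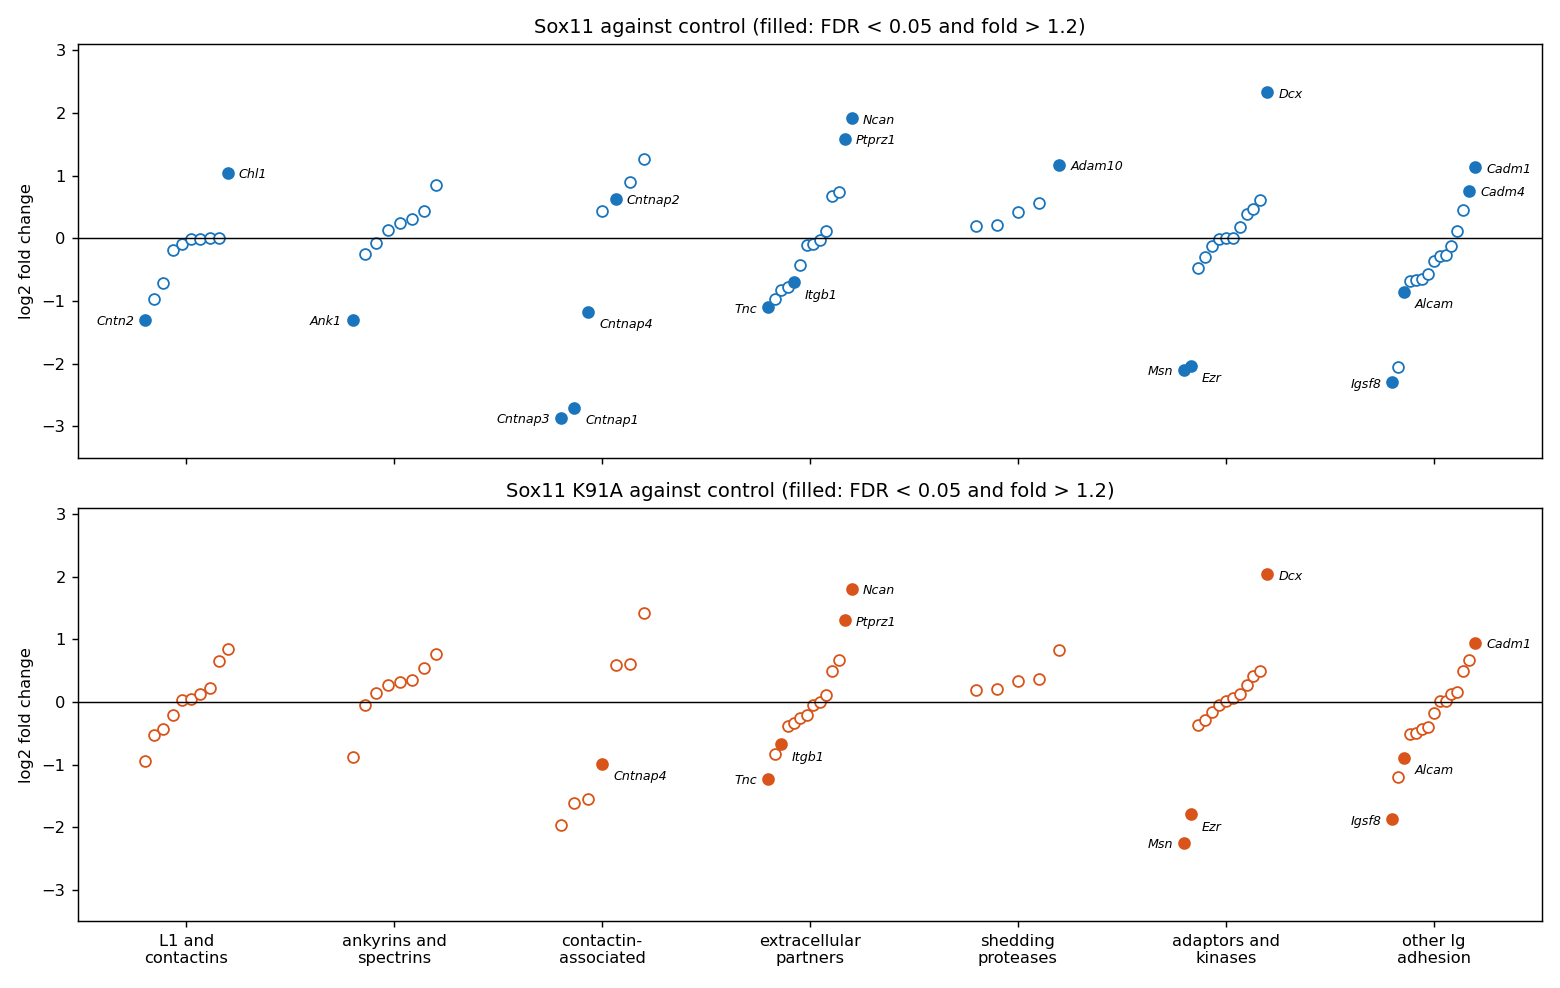
Log2 fold change with Sox11 (upper panel) and K91A (lower panel) against control for the 10 genes and the 6 lists of related genes, each list sorted by value, with filled points for called genes, which are named. Called genes are found above and below 0 in 4 of the 6 lists with Sox11 and in 3 with K91A, with *Dcx* highest (2.33) and *Cntnap3* (-2.87) lowest with Sox11.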

How the data were processed

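Per the labels and the study's methods, the authors aligned reads to mm10 with STAR and counted them with RSEM, and the deposited tables give an expected count, a TPM and a transcript length for each gene and library. Versions, annotation and use of strand are not given in the sources used here. Expected counts were rounded to whole numbers. The 6 libraries, of 27521982 to 37061718 counts, were kept as 3 groups of 2. Genes were filtered with filterByExpr, scaled with TMM (edgeR 4.0.16) and tested in 1 limma-voom fit (limma 3.58.1, R 4.3.3) over 15747 genes, with two-sided p-values and Benjamini-Hochberg adjustment over all of them. CPM levels used the TMM factors and TPM was used for levels between genes. Errors are SE of the fit or the 2 library values.

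The members and lists were chosen with earlier results of these data known. All 10 members were named whatever their values. From each list of related genes, called genes were named (up to 4 in each direction by size of change with Sox11), plus *Ank3*, *Sptbn4*, *Cntnap1*, *Cntnap2*, *Nrp1* and *Adam10*. For likeness, the 3 genes with the highest r to the member with the highest and to that with the lowest fold change with Sox11 were named. Alternatives were 13 other fits (edgeR's quasi-likelihood test, DESeq2, sample quality weights, DESeq2 size factors, library size alone, 2 filters on low counts, the 2 groups alone, the replicate number as a block, counts not rounded, limma-trend on TPM with 1 or 0.1 added before log2, and a block for libraries with *Xist* below the middle of its range), 2 other fold change thresholds, 6 fits without 1 library and 2 added after seeing the data. DESeq2 was version 1.42.0. Sequences are from RefSeq (GRCm38.p6), and protein sequences were not used here.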

Additional observations from a re-analysis of the deposited data

How the results depend on the processing

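Counts of calls depended strongly on single libraries. Over 13 planned fits with all libraries and 3 comparisons, members' log2 fold changes kept direction and side of the threshold in 351 cases, lost the call in 5, gained it in 6 and turned sign in 28, each of the last in a comparison where the gene was not called. The cause was not tested, except that fewer libraries or genes enter some fits by construction. With 18 to 34 counts per library, *Cntn3* allows no small change to be detected.

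Among all genes, Sox11 against control gave 3171 calls in the reported fit, 979 with sample quality weights, 1598 with the 2 groups alone, 2107 on log2(TPM + 0.1) and 2094 without control replicate 2 and Sox11 replicate 2. K91A against control gave 1672 calls in the reported fit, 3144 with DESeq2, 936 on log2(TPM + 1), 896 on log2(TPM + 0.1), 2894 with a block for low *Xist* counts and 4108 without the same 2 libraries. K91A against Sox11 gave 0 calls and 2 with DESeq2. Of the 10 genes, 1 in place of 2 was called with Sox11 under edgeR, quality weights, the 2 groups alone and both fits on TPM. The share of all genes called was then 18%, 6.22%, 10.4%, and 14.3% and 13.4% on TPM, in place of 20.1%. With K91A, 1 in place of 0 was called under DESeq2 (20% of all genes) and the 2 groups alone (11.3%). With the block for low *Xist* counts 3 were called (18.4% of all genes), against 10.6% of all genes in the reported fit. Leaving out each library in turn gave 0 to 3753 genes and 0 to 3 members with Sox11, and 0 to 2563 genes and 0 to 1 members with K91A.

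Deviations of same-numbered libraries from their group means correlated at 0.229, -0.028 and -0.234 over all genes, so the replicate number was not taken as a pairing. With the replicate block, 2679, 1402 and 0 genes were called in the 3 comparisons, with 2, 0 and 0 of the 10 genes. After seeing the data, the K91A numbers were exchanged in this block, which gave 4076, 2753 and 0 genes and 3, 2 and 0 members. The fit without the 2 libraries was also added after seeing the data.

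The sign of *L1cam* with Sox11 turned to -0.0281 (edgeR), -0.0399 (DESeq2), -0.0189 (quality weights), -0.00883 (DESeq2 size factors), -0.0219 (library size alone), -0.00105 (at least 10 counts in every library), -0.0538 (both fits on TPM) and -0.213 (without the 2 libraries). With K91A it turned to -0.000439 (edgeR), -0.0124 (DESeq2), -0.176 (block for low *Xist* counts) and -0.282 (without the 2 libraries). *Nfasc* with Sox11 turned to 0.0035 (all genes with at least 1 count), 0.141 and 0.145 (TPM with 1 or 0.1 added) and 0.000685 (*Xist* block), and *Nrcam* to 0.0879 and 0.0902 on TPM. With K91A the *Xist* block turned *Nfasc* to -0.101, *Nrcam* to -0.119, *Cntn4* to -0.285 and *Sptbn4* to -0.0907. Leaving out the 2 libraries turned *Nfasc* to -0.279, *Nrcam* to -0.209, *Cntn4* to -0.299 and *Cntn5* to -0.0129. For K91A against Sox11 the *Xist* block turned *L1cam* to -0.18, *Nfasc* to -0.101, *Nrcam* to -0.116, *Cntn1* to -0.109, *Cntn2* to -0.0444 and *Cntn4* to -0.175. Leaving out the 2 libraries turned *L1cam* to -0.0687, *Nrcam* to -0.0204, *Cntn1* to -0.124, *Cntn2* to -0.186, *Cntn4* to -0.156 and *Cntn6* to -0.0254, and *Cntn3* turned to 0.0069 with edgeR and 0.00617 with DESeq2.

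Leaving out each library in turn, log2 fold changes with Sox11 ranged from -0.319 to 0.327 for *L1cam*, -0.417 to 0.418 for *Nfasc*, -0.269 to 0.262 for *Nrcam*, -0.732 to 0.23 for *Cntn3*, -0.619 to 0.376 for *Cntn4*, -0.888 to 0.685 for *Cntn5*, -0.111 to 0.733 for *Ank3* and -0.425 to 0.285 for *Sptbn4*. With K91A they ranged from -0.284 to 0.359 for *L1cam*, -0.281 to 0.552 for *Nfasc*, -0.212 to 0.317 for *Nrcam*, -0.736 to 0.224 for *Cntn3*, -0.301 to 0.654 for *Cntn4*, -0.0154 to 1.55 for *Cntn5*, -0.0638 to 0.777 for *Ank3* and -0.197 to 0.511 for *Sptbn4*. Between K91A and Sox11 they ranged from -0.0687 to 0.144 for *L1cam*, -0.0203 to 0.14 for *Nrcam*, -0.124 to 0.544 for *Cntn1*, -0.184 to 0.894 for *Cntn2*, -0.374 to 0.39 for *Cntn3*, -0.155 to 0.729 for *Cntn4* and -0.0233 to 1.07 for *Cntn6*.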
